A study of Mus musculus with 31 samples.

Results

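The striatal identity transcription factors described here are 10 genes: Isl1, Six3, Foxp1, Foxp2, Ebf1, Bcl11b, Meis2, Dlx5, Dlx6 and Rarb. They were chosen by name as factors of developing and adult striatal projection neurons, out of 21154 genes that the arrays name through RefSeq accessions. All 10 are on the array, with 16 probes between them, and all 16 probes passed the filter on dim probes. Each gene is represented by its brightest probe.

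Expression was measured on 31 one-colour Agilent arrays with RNA from the nucleus accumbens (NAc) and the medial prefrontal cortex (mPFC) of adult female mice, 12 weeks old by the age label. Strain (DBA2/J or C57BL/6J), region and early-life treatment make 8 groups, in a study of Xlr4 and vulnerability to cocaine. Repeated cross-fostering (RCF) gave whole litters to a new dam on each of postnatal days 1 to 4, 4 adoptive mothers in all, whereas control litters were lifted daily and put back with their own mother. All mice were weaned on day 28, and no gene was altered in any group. The labels report at most 2 animals per cage or litter.

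After 4 pairs of near-identical arrays were averaged, 27 samples remained: 4 DBA NAc RCF and 4 DBA NAc control, 4 C57 NAc RCF and 2 C57 NAc control, 3 DBA mPFC RCF and 3 DBA mPFC control, 4 C57 mPFC RCF and 3 C57 mPFC control. Levels are log2 signals minus the 75th percentile of the array, so 0 is the level of a rather bright probe, and a difference of 1 is a doubling. Levels of different genes come from different probes and are not compared. A difference was called at an adjusted p of 0.05 in 1 limma fit over 30163 features. Nothing in the labels ties samples to litters, so p-values measure the spread between these samples.

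The NAc is the ventral part of the striatum, where most neurons are GABAergic projection neurons, also called medium spiny neurons. Neurons of the direct pathway carry the dopamine receptor Drd1, and those of the indirect pathway carry Drd2. The mPFC is neocortex, in which excitatory pyramidal neurons predominate and GABAergic cells are interneurons. In the mouse embryo, Dlx5, Dlx6 and Meis2 act in the progenitors and young neurons of the ganglionic eminences. Isl1 and Ebf1 then act in direct-pathway neurons, and Isl1 also in cholinergic interneurons. Six3 acts in indirect-pathway neurons, Bcl11b and Foxp1 in both kinds, and Foxp2 and the retinoic acid receptor Rarb are also enriched in striatal neurons. Bcl11b, Foxp1 and Foxp2 are known in deep-layer cortical neurons as well.

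Promoter sequence was at hand for 7 of the 10 genes, from RefSeq (build GRCm38.p6). Shown are the 250 bases before the start sites of Isl1 and Six3, the genes with the widest range between regions, and of Rarb, whose promoter holds a textbook retinoic acid response element. Each is written 5′ to 3′ on the strand of its gene. Capitals in Rarb (chr14:16575477-16575726, minus strand) mark a direct repeat, GGTTCA and AGTTCA with 5 bases of any kind between them, found at -53 to -37 from the start. Capitals in Six3 (chr17:85620584-85620833, plus strand) and Isl1 (chr13:116309689-116309938, minus strand) mark the CCAAT box on either strand.
Rarb: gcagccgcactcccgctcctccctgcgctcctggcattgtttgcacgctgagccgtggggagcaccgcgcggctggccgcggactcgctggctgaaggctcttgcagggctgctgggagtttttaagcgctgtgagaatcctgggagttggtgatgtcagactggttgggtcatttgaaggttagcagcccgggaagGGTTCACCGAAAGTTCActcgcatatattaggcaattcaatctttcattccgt
Six3: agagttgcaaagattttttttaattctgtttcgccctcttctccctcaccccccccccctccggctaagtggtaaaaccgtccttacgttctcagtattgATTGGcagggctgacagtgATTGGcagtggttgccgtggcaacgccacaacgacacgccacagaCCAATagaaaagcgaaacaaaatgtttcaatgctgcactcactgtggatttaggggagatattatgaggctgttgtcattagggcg
Isl1: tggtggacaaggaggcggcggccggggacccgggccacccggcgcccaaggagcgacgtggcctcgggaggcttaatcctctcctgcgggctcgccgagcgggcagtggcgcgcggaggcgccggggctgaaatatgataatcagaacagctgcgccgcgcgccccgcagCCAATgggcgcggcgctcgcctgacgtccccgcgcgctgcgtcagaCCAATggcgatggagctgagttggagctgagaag

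Both strands of 32841 promoter windows of 300 bases were searched. The direct repeat was found in 2 of them (0.00609%), and the CCAAT box in 37.4%, so the boxes of Six3 and Isl1 are common letters. TAATTA, a core of homeodomain sites, was found in 5.29% of windows and among the members in Foxp1. TGACAG, a core read by Meis proteins, was found in 19.2% of windows and in those of Foxp1, Rarb and Six3. GTAAACA, a forkhead core, was found in 3.65% of windows and in none of the members' windows. A match says only that these letters are there.

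The scanner files and the series matrix disagree on which array is whose for 29 of 31 samples, and each array was given the sample of its matrix column. Some samples also went against their labels. Both touch every comparison below. A tissue score, the mean of striatal minus the mean of cortical marker genes with no member in it, had its midpoint at 1.78. On its wrong side lay C57 NAc control 1 and 3 (averaged, -1.18), C57 NAc RCF 1 (-0.82), C57 mPFC RCF 1 (3.62) and C57 mPFC control 3 (3.15). DBA NAc control 4 and DBA mPFC control 1 carried strain markers of C57 (7.26 and 5.35, midpoint 9.11), and DBA mPFC control 1 also had little Xist (-6.03). These 6 samples are called in doubt. DBA NAc RCF 3 and DBA NAc control 1, described further down, also stood apart by low striatal markers. They were kept, and region and strain results are also given without them. Because the score follows tissue content, larger region differences without them are not independent of that choice. Each of 4 slides held 1 strain and 1 region, so slide cannot be told apart from strain or region.

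**Figure D1:**
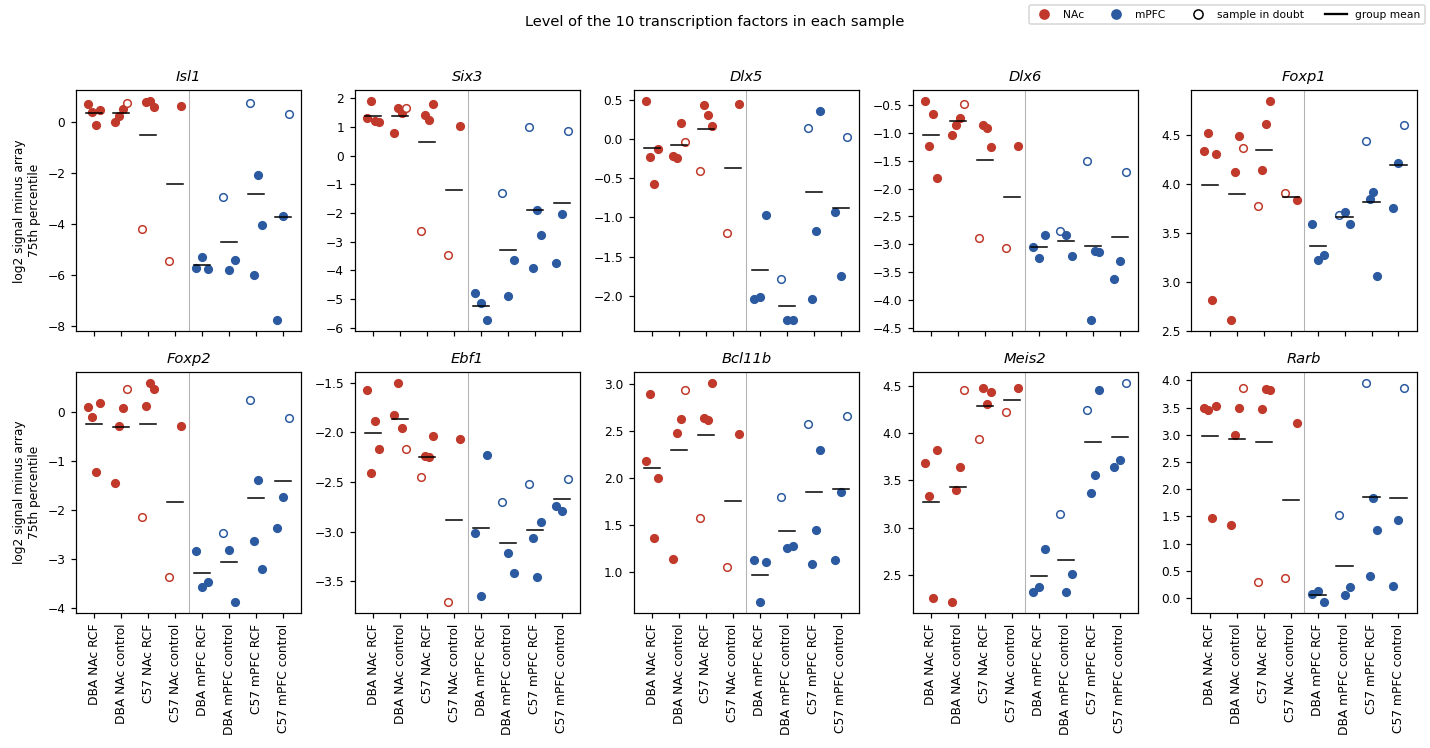
Level of each of the 10 genes (log2, relative to the 75th percentile, vertical axis) in every sample of the 8 groups, NAc groups left of mPFC groups. Points are samples, lines group means, and open points the samples in doubt. In the panels of Isl1 and Six3 the open points of the C57 groups lie at the level of the other region.

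Isl1 and Six3 separated the regions by the widest margin in DBA mice. Isl1, a LIM homeodomain factor, had levels of 0.72, 0.39, -0.12 and 0.46 in DBA NAc RCF samples, against -5.71, -5.30 and -5.77 in DBA mPFC RCF samples. In control mice it had -0.0039, 0.24, 0.52 and 0.75 in the DBA NAc, against -2.93, -5.79 and -5.39 in the DBA mPFC. No NAc value overlapped an mPFC value, and the highest mPFC value belonged to DBA mPFC control 1, a sample in doubt. The difference was 5.96 ± 1.60 (SE) in RCF mice, 62.2-fold, with an adjusted p of 0.00595. In control mice it was 5.08 ± 1.60, 33.8-fold, with an adjusted p of 0.016. The mPFC levels lay close to the dimmest signals counted as well above background, which averaged -6.40 on the DBA mPFC RCF arrays.

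Six3, a homeodomain factor of the sine oculis family, showed the same separation. Its levels were 1.32, 1.90, 1.20 and 1.17 in DBA NAc RCF samples, against -4.79, -5.14 and -5.73 in DBA mPFC RCF samples. Control samples had 0.80, 1.65, 1.49 and 1.66 in the DBA NAc, against -1.31, -4.88 and -3.62 in the DBA mPFC. The groups did not overlap in either treatment. The difference was 6.62 ± 1.19 in RCF mice (98.2-fold, adjusted p = 0.00022) and 4.67 ± 1.19 in control mice (25.5-fold, adjusted p = 0.00409). Without DBA mPFC control 1 and DBA NAc control 4, the control difference was 5.56 ± 0.53.

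Foxp2, a forkhead repressor, and Rarb were higher in the DBA NAc too. Foxp2 had 0.11, -0.10, -1.21 and 0.19 in DBA NAc RCF samples, against -2.84, -3.57 and -3.47 in DBA mPFC RCF samples, a difference of 3.04 ± 0.79 (8.25-fold, adjusted p = 0.00488). In control mice it had -1.46, -0.29, 0.09 and 0.49 in the NAc, against -2.47, -2.82 and -3.88 in the mPFC, a difference of 2.76 ± 0.79 (adjusted p = 0.00915). Neither pair of groups overlapped.

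Rarb, a nuclear receptor for retinoic acid, had 3.49, 3.46, 1.47 and 3.52 in DBA NAc RCF samples, against 0.08, 0.14 and -0.07 in DBA mPFC RCF samples. That difference was 2.93 ± 0.95 (7.64-fold, adjusted p = 0.0182). Among controls, the DBA NAc had 1.34, 3.00, 3.48 and 3.85, against 1.53, 0.05 and 0.21 in the DBA mPFC. Here the groups overlapped through NAc control 1 and mPFC control 1, and the difference of 2.32 ± 0.95 was not called (adjusted p = 0.0568). Without the samples in doubt it was 2.48 ± 0.61 (adjusted p = 0.00432). The call depended on the probe. With all samples, a dimmer Rarb probe was called at 2.78 in RCF mice (adjusted p = 0.0126) and 2.49 in controls (adjusted p = 0.0234). The dimmest Rarb probe was called in neither, at 1.03 (adjusted p = 0.138) and 0.99 (adjusted p = 0.158).

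The paired homeobox genes Dlx5 and Dlx6, neighbours on chromosome 6 that act in GABAergic neurons, were higher in the DBA NAc by similar amounts. Dlx5 differed by 1.56 ± 0.48 in RCF mice (adjusted p = 0.0144) and by 2.06 ± 0.48 in control mice (adjusted p = 0.00218). Dlx6 differed by 2.00 ± 0.56 (adjusted p = 0.00802) and by 2.15 ± 0.56 (adjusted p = 0.00493). Ebf1, a helix-loop-helix factor, differed less, by 0.96 ± 0.33 in RCF mice (1.94-fold, adjusted p = 0.0243) and by 1.25 ± 0.33 in control mice (2.38-fold, adjusted p = 0.00492). Its DBA RCF groups overlapped, with -1.57 to -2.41 in NAc samples and -2.23 to -3.65 in mPFC samples.

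Bcl11b, Meis2 and Foxp1 did not pass the test in DBA mice. Bcl11b, a zinc finger factor also called Ctip2, was higher in the NAc by 1.14 ± 0.46 in RCF mice (adjusted p = 0.0556) and by 0.86 ± 0.46 in controls (adjusted p = 0.148). For Meis2, a homeodomain partner of Pbx proteins, the differences were 0.78 ± 0.40 (adjusted p = 0.125) and 0.77 ± 0.40 (adjusted p = 0.132). For Foxp1 they were 0.63 ± 0.41 (adjusted p = 0.224) and 0.23 ± 0.41 (adjusted p = 0.678).

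In all, 7 of 10 members were higher in the DBA NAc among RCF mice, where 39.0% of all features were called and 12.4% were called higher. Among controls it was 6 of 10, where 38.1% of all features were called and 11.1% were called higher. The median member difference was 1.78 in RCF mice and 2.11 in controls, against -0.12 over all features in both. NAc and mPFC values did not overlap for 7 members in RCF mice, as for 16.5% of features in that direction, and for 6 members in controls, as for 14.0%. An exact two-sided permutation test over the samples gave its smallest possible p of 0.0286 for 5 members in RCF mice and for 6 in controls. It was run on the members only, so no share over all features stands beside it. With the samples in doubt set aside, 8 and 7 members were called, where 44.2% (RCF) and 37.0% (control) of features were. With the scanner files as listed, 0 members were called in either treatment. In bulk tissue, fewer cells of a type and less RNA per cell cannot be told apart.

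In C57 mice no member was called by its brightest probe with all samples. The dimmest Foxp1 probe was called in C57 RCF mice (1.51 ± 0.34, adjusted p = 0.0105). Among RCF mice 7.63% of features were called, and among controls 0.0829%. The values of Six3 were spread widely. It had -2.61, 1.42, 1.25 and 1.80 in C57 NAc RCF samples, against 1.01, -3.91, -1.90 and -2.76 in C57 mPFC RCF samples. In each group the first sample, in doubt by its tissue score, stood at the level of the other region. Among C57 controls the NAc samples had -3.45 and 1.04, against -3.74, -2.03 and 0.88 in the mPFC, where -3.45 and 0.88 are again samples in doubt.

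Isl1 had -4.18, 0.80, 0.81 and 0.60 in C57 NAc RCF samples, against 0.76, -5.97, -2.05 and -4.01 in C57 mPFC RCF samples. C57 controls had -5.43 and 0.62 in the NAc, against -7.75, -3.66 and 0.31 in the mPFC. The same samples in doubt crossed over. Isl1 was well above background on 2 of 4 C57 NAc control arrays, 3 of 4 C57 mPFC RCF arrays and 2 of 3 C57 mPFC control arrays, and on all arrays of the other groups. Its fitted differences, 2.33 ± 1.48 in RCF mice (adjusted p = 0.346) and 1.29 ± 1.91 in controls (adjusted p = 0.861), were not called.

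Without the samples in doubt, 8 members were called higher in the C57 NAc among RCF mice, where 21.9% of features were called and 9.69% were called higher. Isl1, whose mPFC arrays were not all well above background, then differed by 4.75 ± 0.81 (adjusted p = 0.000531) and Six3 by 4.34 ± 0.48 (20.3-fold, adjusted p = 1.3e-05). Foxp2 differed by 2.80 (adjusted p = 0.000456), Dlx6 by 2.52 (adjusted p = 5.31e-05) and Rarb by 2.55 (adjusted p = 0.00284). Dlx5, Bcl11b and Ebf1 passed with differences of 1.25, 1.15 and 0.96, and Foxp1 and Meis2 did not. C57 NAc control then keeps 1 sample, whose spread is assumed to be that of the other groups. On that footing Isl1, Six3 and Dlx6 passed in controls, where 5.69% of features were called.

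**Figure D2:**
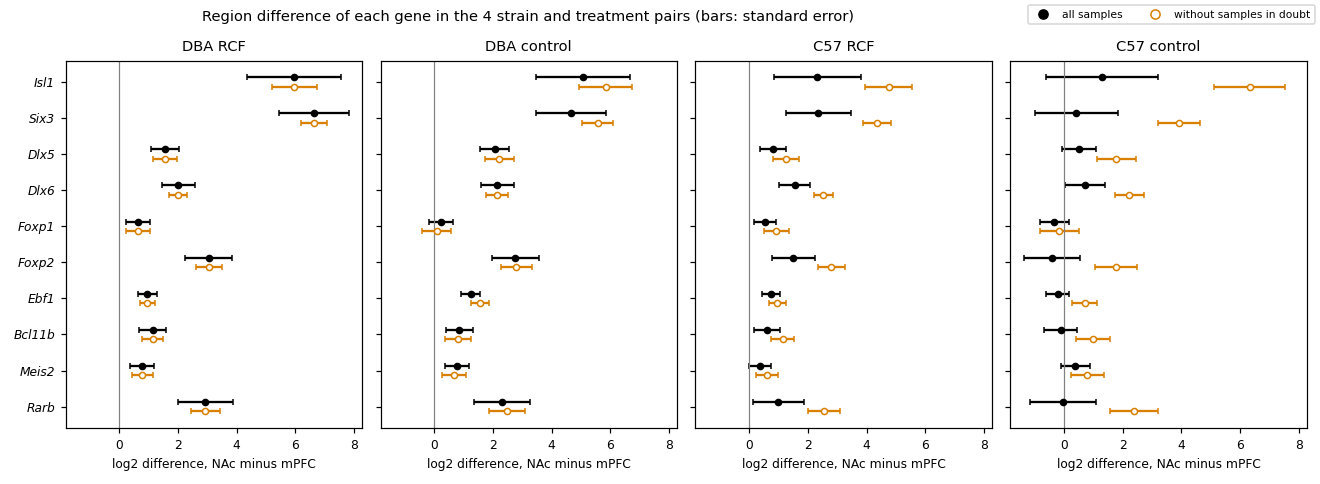
NAc minus mPFC difference (log2, horizontal axis) of the 10 genes in each strain and treatment, with standard errors, for all samples and with those in doubt left out. In the DBA panels both sets of points lie close together, whereas in C57 mice most points lie further right without the samples in doubt.

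Averaged over strain and treatment with all samples, 9 of 10 members were higher in the NAc, where 50.9% of all features were called and 17.2% were called higher. The differences in order were 3.66 ± 0.83 for Isl1 (adjusted p = 0.000976), 3.52 ± 0.62 for Six3 (11.4-fold, adjusted p = 8.99e-05) and 1.72 ± 0.41 for Foxp2 (adjusted p = 0.00151). Dlx6 followed with 1.61 ± 0.29 (adjusted p = 0.000128), Rarb with 1.55 ± 0.49 (adjusted p = 0.0115) and Dlx5 with 1.23 ± 0.25 (adjusted p = 0.000362). Smallest were Ebf1 with 0.68 ± 0.17 (adjusted p = 0.00206), Bcl11b with 0.62 ± 0.24 (adjusted p = 0.0348) and Meis2 with 0.58 ± 0.21 (adjusted p = 0.0234). Among these 9 genes the steps from Six3 to Foxp2 and from Dlx5 to Ebf1 exceeded the standard errors of both genes, the other steps did not, and no step was tested. The median over members was 1.39, against -0.09 over all features. Leaving out the samples in doubt, 9 members were again called, where 54.6% of features were, and the median was 1.96. Isl1 then had 5.72 ± 0.47, Six3 5.11 ± 0.28, Foxp2 2.60 ± 0.27, Rarb 2.59 ± 0.31 and Dlx6 2.22 ± 0.19, and Foxp1 again missed (0.37 ± 0.25). With the scanner files as listed, 0 members were called on average.

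Foxp1 was the member that missed the average, at 0.27 ± 0.21 (adjusted p = 0.297). Its levels ran from 2.82 to 4.52 in DBA NAc RCF samples and from 2.61 to 4.49 in DBA NAc control samples, against 3.22 to 3.60 in DBA mPFC RCF samples and 3.60 to 3.72 in DBA mPFC control samples. It was thus a bright signal in both regions. Its probes disagreed. A second probe gave 0.18 ± 0.21 (adjusted p = 0.489), whereas the dimmest, designed on another RefSeq transcript, gave 0.93 ± 0.19 (adjusted p = 0.0004). Which transcripts each probe reads was not tested.

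In the averaged region comparison, the probes of the other members with several probes differed in size but not in direction. The second Bcl11b probe gave 0.30 ± 0.21 (adjusted p = 0.222), so its call rested on the brightest probe. The second Foxp2 probe gave 1.53 ± 0.43 (adjusted p = 0.00502). The other Rarb probes gave 1.91 ± 0.44 (adjusted p = 0.00105) and 0.86 ± 0.28 (adjusted p = 0.0153).

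Within the DBA NAc, 1 RCF sample (number 3) and 1 control sample (number 1) stood apart, and the members split over them. Rarb was 1.47 and 1.34 in these samples, against 3.00 to 3.85 in the other 6 DBA NAc samples and -0.07 to 0.21 in the 5 DBA mPFC samples not in doubt. Meis2 was 2.26 and 2.21, against 3.33 to 4.45 in the other NAc samples, and so below the 2.32 to 2.78 of the mPFC. Foxp1 was 2.82 and 2.61, against 4.13 to 4.52 in the other NAc samples and 3.22 to 3.72 in the mPFC. Meis2 and Foxp1 were thus below every mPFC sample not in doubt, and Rarb lay between the regions.

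Bcl11b (1.36 and 1.13, against 2.00 to 2.94) and Foxp2 (-1.21 and -1.46, against -0.29 to 0.49) were also low in both samples. Six3 was not: at 1.20 and 0.80 it lay near the 1.17 to 1.90 of the other NAc samples and far from the -5.73 to -3.62 of the mPFC. Isl1 likewise had -0.12 and -0.0039, against 0.24 to 0.75 in the other NAc samples and -5.79 to -5.30 in the mPFC. Dlx5 was -0.58 and -0.21, against -0.24 to 0.48 in the other NAc samples. Dlx6 (-0.66 and -1.05) and Ebf1 (-1.89 and -1.82) lay inside the range of the other NAc samples, which was -1.82 to -0.44 for Dlx6 and -2.41 to -1.50 for Ebf1.

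Markers of striatal projection neurons moved with the low members in these samples. The mean of the striatal list was 1.73 and 1.67, against 3.13 to 3.73 in the other DBA NAc samples. Drd1 was 0.34 and 0.17, against 1.98 to 2.79, and Adora2a was 0.60 and 0.70, against 2.78 to 3.80. Drd2 was less clear, at -2.51 and -2.91 against -2.64 to -0.90, so RCF sample 3 lay inside that range. The mean of the cortical list was -1.72 and -1.45, inside the -2.18 to 0.29 of the other NAc samples and far under the 1.80 to 2.10 of the mPFC. Genes known from septal and other ventral forebrain neurons were higher, with Gal at 3.17 and 2.76, against -0.00 to 0.93, and Nkx2-1 at -0.58 and -0.29, against -2.12 to -1.32. The part of tissue content in the members' low values was not tested.

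Without both samples, 9 members were called higher in the DBA NAc in each treatment, where 34.9% (RCF) and 35.0% (control) of features were called. Foxp1 was then called in RCF mice at 1.03 ± 0.27 (adjusted p = 0.0076) and on average at 0.47 ± 0.14 (adjusted p = 0.00748). Meis2 passed in RCF mice at 1.12 ± 0.31 (adjusted p = 0.00845). These samples were set aside after their values were seen.

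**Figure D3:**
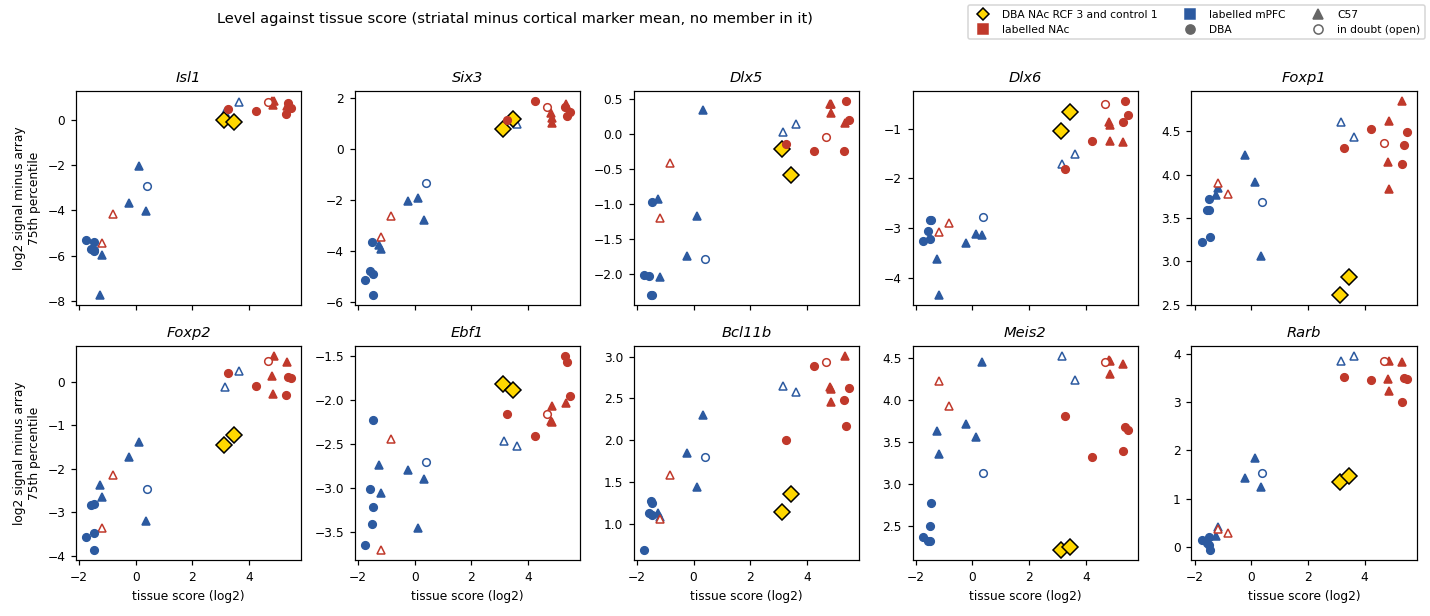
Level of each of the 10 genes (log2, vertical axis) against the tissue score of the sample (striatal minus cortical marker mean, log2, horizontal axis), with 1 point per sample, red for NAc, blue for mPFC, circles for DBA, triangles for C57, open symbols for samples in doubt and gold diamonds for DBA NAc RCF 3 and control 1. The diamonds have Six3 levels of 1.20 and 0.80, near the other NAc samples, beside Rarb levels of 1.47 and 1.34, well below them.

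Meis2 was lower in the mPFC of DBA mice than in that of C57 mice, and its NAc values ran the same way without a call. It had 3.68, 3.33, 2.26 and 3.82 in DBA NAc RCF samples, against 3.94, 4.48, 4.31 and 4.44 in C57 NAc RCF samples. In the mPFC, RCF samples had 2.32, 2.37 and 2.78 in DBA mice, against 4.24, 3.37, 3.56 and 4.46 in C57 mice. Every DBA sample lay under every C57 sample in both pairs.

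Among controls, Meis2 had 2.21, 3.40, 3.64 and 4.45 in the DBA NAc, against 4.22 and 4.47 in the C57 NAc. In the mPFC the controls had 3.14, 2.32 and 2.51 in DBA mice, against 3.64, 3.72 and 4.53 in C57 mice. The highest DBA value in each region, 4.45 in NAc control 4 and 3.14 in mPFC control 1, came from the samples whose strain markers were those of C57. The level of DBA NAc control 4 lay among those of the C57 NAc. DBA mPFC control 1, in contrast, lay below every C57 mPFC sample, the lowest of which was 3.37.

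The DBA minus C57 difference of Meis2 was -1.42 ± 0.40 in mPFC RCF samples (2.67-fold lower in DBA, adjusted p = 0.00907) and -1.31 ± 0.43 in mPFC control samples (2.47-fold lower in DBA, adjusted p = 0.0302). In the NAc it was -1.02 ± 0.37 in RCF samples (adjusted p = 0.0662) and -0.92 ± 0.45 in controls (adjusted p = 0.165), neither called. The exact two-sided permutation p was 0.0286 in both RCF comparisons, the smallest possible, and 0.1 in mPFC controls, also the smallest possible, and 0.267 in NAc controls. Leaving out the samples in doubt gave -1.14 ± 0.35 (adjusted p = 0.0337) in NAc RCF and -1.31 ± 0.37 (adjusted p = 0.0128) in mPFC RCF. The control differences were then -1.39 ± 0.53 (adjusted p = 0.134) in the NAc and -1.26 ± 0.46 (adjusted p = 0.0629) in the mPFC.

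With the tissue score as a covariate, the Meis2 difference passed in all 4 comparisons: -1.09 in NAc RCF (adjusted p = 0.0205), -1.32 in NAc control (adjusted p = 0.0404), -1.09 in mPFC RCF (adjusted p = 0.0269) and -1.10 in mPFC control (adjusted p = 0.0359). With the scanner files as listed, the sign of Meis2 turned, with 1.07 in NAc RCF, 0.62 in mPFC RCF and 0.43 in mPFC control samples. By their matrix columns, those listed pairs held NAc arrays against mPFC arrays of the same strain. If the matrix is right, these 3 values are region differences and not strain differences. Strain and slide cannot be told apart in the DBA minus C57 comparisons.

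**Figure D4:**
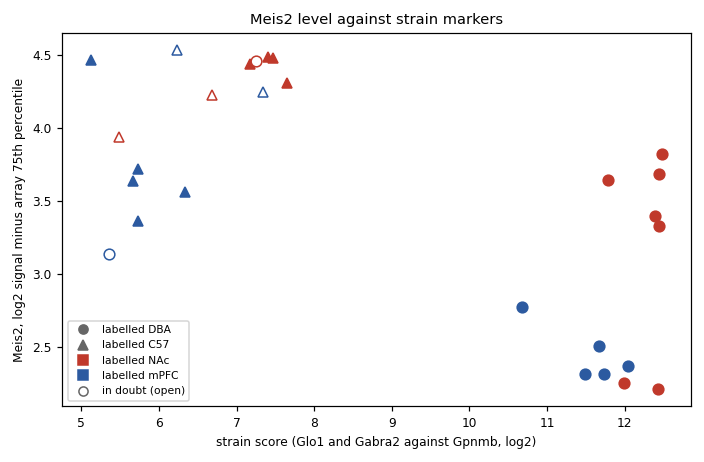
Meis2 level (log2, vertical axis) against the strain score (log2, horizontal axis, high in DBA), with 1 point per sample, circles for DBA, triangles for C57, red for NAc, blue for mPFC and open symbols for samples in doubt. DBA mPFC samples not in doubt lie between 2.32 and 2.78, below the lowest C57 mPFC sample at 3.37. The open red circle, DBA NAc control 4, lies at 4.45 among C57 NAc samples. The open blue circle, DBA mPFC control 1, lies at 3.14, below every C57 mPFC sample.

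Six3 was also lower in the DBA mPFC among RCF mice, with a difference of -3.33 ± 1.19 (adjusted p = 0.0331), and of -2.37 ± 0.48 without the samples in doubt (adjusted p = 0.00125). So 2 of 10 members were called there, both lower, where 35.0% of features were called and 13.5% were called lower. In mPFC controls 1 of 10 was called, Meis2, where 24.2% of features were called and 8.36% were called lower. The other members ranged from -2.78 (Isl1) to 0.02 (Ebf1) in mPFC RCF samples and from -1.64 to -0.07 in mPFC controls, with -0.01 and -0.07 for Dlx6, -1.81 and -1.24 for Rarb, -0.99 and -1.25 for Dlx5, -0.88 and -0.44 for Bcl11b and -0.45 and -0.53 for Foxp1. Other probes did not all go that way in the mPFC. The second and the dimmest Foxp1 probe gave 0.27 and 0.90 in RCF samples, and -0.01 and 0.97 in controls. The other Rarb probes gave -0.21 and 0.13 in RCF samples, and -0.22 and 0.06 in controls. The second Bcl11b and Foxp2 probes were lower in DBA mice, as the brightest were, and none of these probes was called. In NAc RCF samples the second Bcl11b probe gave 0.39. No member was called in the NAc, where 15.8% of features passed in RCF mice and 17.0% in controls. There the members other than Meis2 ranged from -0.35 (Foxp1 and Bcl11b) to 0.93 (Six3) in RCF samples, with 0.86 for Isl1, and from 0.03 (Foxp1) to 2.78 (Isl1) in controls, with 2.61 for Six3. The tissue score moved with the Six3 result: leaving aside the samples in doubt, it was -1.75 to -1.46 in DBA mPFC samples, against -1.26 to 0.34 in C57 mPFC samples. With the score as a covariate the difference was -1.50 ± 0.47 (adjusted p = 0.0176).

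With all samples, the region difference itself was called unequal between strains for Six3 and Foxp2. Its interaction, the DBA difference minus the C57 difference averaged over treatments, was 4.26 ± 1.23 for Six3 (adjusted p = 0.012) and 2.36 ± 0.82 for Foxp2 (adjusted p = 0.0326). These are 2 of 10 members, where 31.3% of all features were called and 9.88% were called in that direction. Without the samples in doubt Six3 had 1.96 ± 0.55 (adjusted p = 0.02), but Foxp2 had 0.63 (adjusted p = 0.453). Of the other members, Rarb had 2.15, Dlx5 1.15, Dlx6 0.95, Ebf1 0.84, Bcl11b 0.75, Meis2 0.39 and Foxp1 0.33, none called. For Isl1 the interaction was 3.71 (adjusted p = 0.0906), and 0.36 without the samples in doubt (adjusted p = 0.825). Without C57 NAc control 1 and 3, a sample in doubt, neither Six3 (3.14, adjusted p = 0.078) nor Foxp2 (1.59, adjusted p = 0.179) passed.

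Repeated cross-fostering gave no called difference for any member in either strain or region, and 0 of 10 members had an unadjusted p under 0.05 in any of the 4 comparisons. With limma's adjusted p, no feature was called in the DBA NAc, the DBA mPFC or the C57 mPFC (0.0% in each), and 0.6% of features were called in the C57 NAc. With the scanner files as listed, 1 member was called in the DBA mPFC, 2 in the C57 NAc and 1 in the C57 mPFC. The shares of all features called in that setting are not given here, so these counts do not set the members apart. In the DBA NAc the RCF minus control differences ran from -0.26 to 0.10, with a median of -0.03, and were -0.26 for Dlx6 and 0.07 for Rarb. RCF and control samples overlapped for all 10 members there.

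The intervals rest on a spread per gene that the fit shares over all 8 groups. For Isl1 the standard deviation was 0.35 in DBA NAc RCF and 0.33 in DBA NAc control samples. In the C57 NAc groups, which hold samples in doubt, it was 2.46 (RCF) and 4.28 (control). The intervals of the DBA NAc thus also carry the spread of other groups. In the DBA NAc the 95% interval was -0.77 to 0.48 for Ebf1, -0.92 to 0.61 for Meis2 and -0.68 to 0.88 for Foxp1, so a difference of 1 in either direction lies outside them. For Isl1 the interval ran from -3.08 to 3.06 and for Six3 from -2.29 to 2.28, with standard errors of 1.48 and 1.10 that were 0.76 and 0.44 without the samples in doubt. In the C57 NAc, Isl1 was higher in RCF samples by 1.91 with an interval of -1.85 to 5.68. The smallest adjusted p of a member there was 0.538, for Foxp2. No interaction of treatment with strain or region was called for a member, where 0.0% of features were called.

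In the DBA mPFC, the differences ran from -1.95 for Six3, with an interval of -4.59 to 0.69, to 0.46 for Dlx5. Foxp1 had 3.60, 3.22 and 3.28 in RCF samples, against 3.68, 3.72 and 3.60 in control samples, and Bcl11b had 1.12, 0.68 and 1.11 in RCF samples, against 1.79, 1.25 and 1.27 in control samples. The groups did not overlap for either gene, although the nearest Foxp1 values both round to 3.60, and 10.9% of all features had no overlap in one direction or the other. Neither was called, with differences of -0.30 and -0.47. In the C57 mPFC the differences ran from -0.38 to 0.88. Both treatments were on each slide, mostly in separate columns of it.

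**Figure D5:**
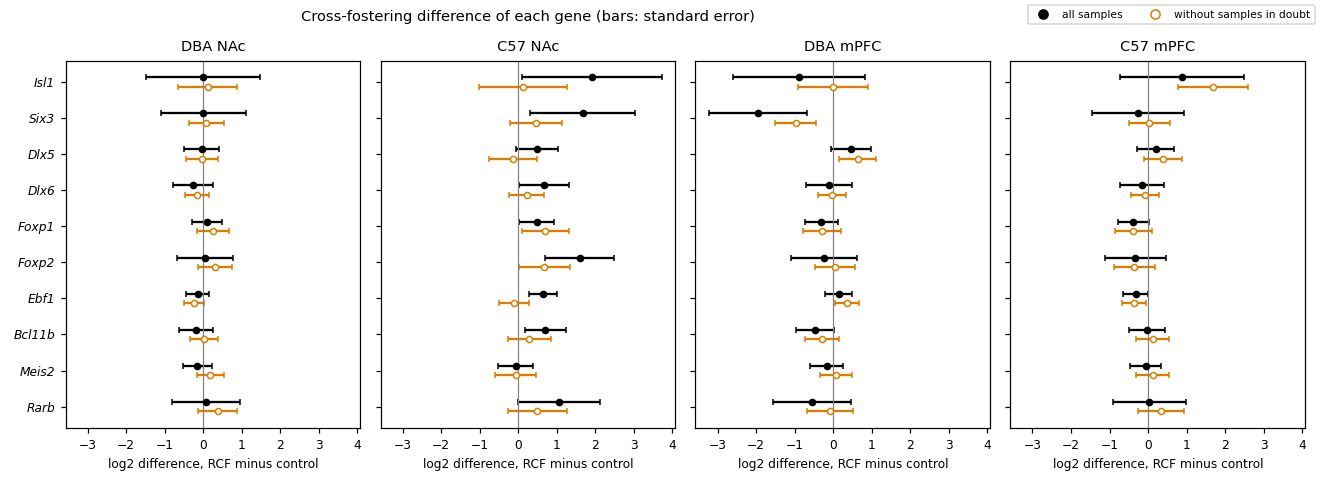
RCF minus control difference (log2, horizontal axis) of the 10 genes in each strain and region, with standard errors, for all samples (black) and with those in doubt left out (orange). In the DBA NAc the black points lie between -0.26 and 0.10, and the bars of Isl1 and Six3 are the widest there.

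Relatives and partners of the members were described from a list of 30 genes, of which 28 were measured. On average over strain and treatment, 14 were called higher and 6 lower in the NAc, where 50.9% of all features were called and 17.2% were called higher. Their median was 0.24, against -0.09 over all features. Lhx8, a LIM homeodomain factor of cholinergic neurons, and Six3os1, a non-coding RNA next to Six3, were not well above background on any DBA mPFC RCF array. Against the floor of those arrays, Lhx8 was at least 439-fold higher in DBA NAc RCF samples (adjusted p = 0.000153) and Six3os1 at least 138-fold higher (adjusted p = 0.000528). Likewise Nkx2-1 was at least 29.9-fold higher (adjusted p = 0.000676) and Gbx2 at least 20.7-fold higher (adjusted p = 0.00231), so no average is given for these 4 genes.

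Paralogs did not all go the way of the members. Meis1 was higher in the NAc by 1.23 ± 0.34 (adjusted p = 0.0052) and Pbx3, a Meis partner, by 1.26 ± 0.31 (adjusted p = 0.0022). Bcl11a, the paralog of Bcl11b, was lower, at -0.32 ± 0.09 (adjusted p = 0.00697). Ebf2 was lower, at -1.65 ± 0.41 (adjusted p = 0.002), while Ebf4 was higher by 1.24 ± 0.21 (adjusted p = 6.41e-05) and Ebf3 was not called (0.06 ± 0.33). Of the Dlx genes on the array beside Dlx5 and Dlx6, neither Dlx1 (-0.07 ± 0.27, adjusted p = 0.838) nor Dlx2 (0.37 ± 0.21, adjusted p = 0.141) passed.

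Around Rarb, a list of 19 retinoic acid genes was read, of which 18 were measured and whose other receptors are also in the list of relatives. On average 6 were called higher and 5 lower in the NAc, with a median of -0.04, where 50.9% of all features were called and 17.2% were called higher. The counts thus do not set this list apart. Among the largest differences were 2.52 ± 0.45 for Crabp1, a retinoic acid binding protein (adjusted p = 0.000105), 1.25 ± 0.40 for the receptor Rxrg (adjusted p = 0.0137) and -1.18 ± 0.25 for the plasma retinol carrier Rbp4 (adjusted p = 0.000461). Receptors thus moved both ways, since Rxra had -0.51 ± 0.09 (adjusted p = 0.000163) and Rara -0.36 ± 0.14 (adjusted p = 0.029), both lower in the NAc. With the samples in doubt left out, 8 were called higher and 6 lower, where 54.6% of all features were called. Crabp1 was then at 3.71, Rxrg at 2.11 and Rbp4 at -1.68.

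Most genes of the output pathways were called higher in the NAc on average, where 50.9% of all features were called and 17.2% were called higher. Of 7 direct-pathway genes, 4 were called higher and none lower, with a median of 1.62. They were Slc35d3 (2.85), Drd1 (2.03), Tac1 (1.76), which encodes substance P, and Pdyn (1.62), which encodes dynorphin. Of 7 indirect-pathway genes, 6 were called higher and none lower, with a median of 1.02, led by the adenosine receptor Adora2a (2.68), the enkephalin gene Penk (2.04), Drd2 (1.29) and Gpr52 (1.02). These differences were larger without the samples in doubt, with Slc35d3 at 4.35, Drd1 at 3.21, Tac1 at 2.89 and Pdyn at 2.65. Adora2a was then at 4.21, Penk at 3.35, Drd2 at 2.18 and Gpr52 at 1.37. Drd1, Tac1, Pdyn, Gpr6, Adora2a, Penk and Drd2 are also in the striatal list of the tissue score, which put the C57 samples in doubt. Larger differences of these genes without those samples are not independent of that choice. In contrast, all 13 cortical transcription factors were lower in the NAc with all samples, with a median of -3.14.

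In the RCF minus control comparisons, none of the 28 relatives and none of the 18 retinoic acid genes was called in either strain or region. Between strains in the mPFC of RCF mice, 2 of the 28 relatives were called higher and 4 lower in DBA mice. Of all features, 35.0% were called there and 13.5% were called lower, so these counts do not set the relatives apart. Lhx8 was at least 17.9-fold lower in the DBA mPFC (adjusted p = 0.0137) and Six3os1 at least 10.8-fold lower (adjusted p = 0.0205). Without C57 mPFC RCF 1, which is in doubt, and the other samples in doubt, the bounds were 6.61-fold (adjusted p = 0.00123) and 4.45-fold (adjusted p = 0.00441). Pbx3 was lower with a difference of -1.85. The tissue scores given for Six3 apply to these genes as well.

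The genes whose centred levels lay closest to a member's over the 27 samples were found by the root mean square difference among 16163 named genes. This is a description, since samples share region, strain and slide. For Rarb they were Tac1 (0.307), Pdyn (0.324) and Ppp1r1b (0.331), beside a standard deviation of Rarb itself of 1.55. For Foxp2 they were Gprin3 (0.409), Pdyn (0.468) and Col11a1 (0.492). Isl1 lay closest to the choline transporter gene Slc5a7 (0.589), then Mhrt (0.660) and Slc10a4 (0.710), with a standard deviation of 2.94 of its own.

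Six3 lay closest to Cartpt (0.641), Peg10 (0.663) and Clic6 (0.674). Dlx5 lay closest to Sp9 (0.349), a zinc finger factor, then Isoc1 (0.373) and Sox11 (0.381), and Dlx6 to N4bp2 (0.342), the GABA-synthesising enzyme gene Gad2 (0.364) and Ahi1 (0.398). The nearest genes to Foxp1 were Gucy1a1, Cpne5 and Akap5 (0.266 to 0.274), to Bcl11b Kif27, Fam102b and Rps6ka5 (0.282 to 0.296), to Ebf1 Lima1, G6pdx and Kctd12b (0.286 to 0.314) and to Meis2 Robo1, Lrp6 and Atad3aos (0.405 to 0.414). Among the members, Foxp2 and Rarb were most alike (0.463), then Foxp1 and Bcl11b (0.491). Isl1 and Six3 differed by 0.804, and Isl1 and Foxp1 were least alike (2.67).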

How the data were processed

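The arrays were scanned and read with Agilent Feature Extraction 10.7.3.1, per the file headers. The deposited scanner files hold for each of 62976 spots an intensity that is background-subtracted and spatially detrended, with no normalization between arrays. Other deposited columns give median spot and background intensities and yes-or-no marks. The authors' series matrix holds log2 values, each column the log2 signal of 1 scanner file plus a constant. The role of limma in the submitters' processing notes is not stated.

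Scanner files and matrix disagree on which array is whose: 29 of 31 files match a column other than that of their listed sample. Each file was given the sample of its matrix column (lowest correlation with it 0.999996, highest with any other 0.998). Of 45 pairs of arrays within a group, 4 had array differences of 0.845 to 1.11 times the spread seen between replicate spots, and the others of 1.79 to 6.07 times. The 4 pairs differed by less than 1.5 times this spread and were counted as 1 sample each: numbers 1 and 3 in C57 NAc control and in DBA mPFC RCF, and numbers 2 and 4 in C57 NAc control and in DBA mPFC control.

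Values analysed were log2 signals, each array shifted so that its 75th percentile is 0. Probes were kept if 3 or more arrays of a group had them well above background and they were marked outliers on at most 50% of arrays (43412 of 55681). They were named through RefSeq accessions, with the brightest probe per gene. On each array 58.6% to 81.9% of probes were well above background, and precision is limited by how many samples there are. A gene with no array of a group well above background has a fold written "at least", against the higher of its own signal and the dimmest signal well above background on each array.

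Differences were tested in limma 3.58.1 (R 4.3.3) with 8 group means, an intensity trend and Benjamini-Hochberg adjustment over all 30163 features. Figures were drawn with matplotlib 3.10.9 and tables made with pandas 2.3.3 (Python 3.11.15). The fit was tested on simulated data. The strain score took Gpnmb from the average of Gabra2 and Glo1. Alternatives were other normalizations, filters, probes, array assignments, sample sets and fits. The normexp alternative used the median instead of the mean spot intensity. All members were tested in every comparison, and of other lists up to 4 called genes with the largest difference; paralogs were added after their values were seen, and some listed genes are not reported here. Members, lists and tests were chosen with earlier results of these data known.

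The label's age of treatment, in weeks, and the protocol's postnatal days disagree, and the protocol was followed. Same-numbered samples of different groups deviated together about as much as others (median r of 0.0152, against 0.006). Most of these pairs cross strains or treatments. The check therefore cannot say whether NAc and mPFC samples of the same number came from the same animal. Samples were treated as unpaired in the main fit.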

Additional observations from a re-analysis of the deposited data

Results flagged for a closer look

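Each member was checked in each group of 4 samples, which made 40 sets. In 5 sets a sample's gap to its neighbour took up more of the range than Dixon's critical value for 4 samples allows. Chance gives about 1 in 20 for a single set, but sets of different genes share their samples. All 5 came from C57 NAc RCF 1 and DBA NAc RCF 3, so their number was not set against chance. In C57 NAc RCF, sample 1 was the lowest for Isl1 (gap over range 0.956), Six3 (0.875) and Rarb (0.899). This sample had the tissue score of the cortex, -0.82. In DBA NAc RCF, sample 3 was the lowest for Foxp1 (0.875) and Rarb (0.968), and its striatal marker mean was 1.73, against 3.13 to 3.73 in the DBA NAc samples other than it and control 1. The part of tissue content in these values was not tested.

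With all samples, the NAc minus mPFC difference was called unequal between the strains for 31.3% of all features. Among the members these were Six3 (limma interaction adjusted p = 0.012) and Foxp2 (0.0326). C57 NAc control 1 and 3, a sample with a cortical tissue score, enters both. Without it the adjusted p was 0.078 for Six3 and 0.179 for Foxp2.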

How the results depend on the processing

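Counts of members called are given out of 10. Shares over all features are not given beside them in this paragraph, so the counts do not set the members apart from other genes. Without the samples in doubt, the C57 NAc minus mPFC counts were 8 (RCF) and 3 (control), against 0 and 0 with all samples, the DBA minus C57 counts were 1 in NAc RCF and 0 in mPFC control, and the strain by region count was 1. Alternatives chosen after seeing the data were these: without DBA NAc control 1 and RCF 3 the strain by region count was 4, and without these and the samples in doubt the C57 counts were 8 and 4, NAc RCF strain 1 and strain by region 1. With the scanner files as listed, the NAc minus mPFC counts were 0 in DBA RCF, 0 in DBA control and 0 on average. RCF minus control then gave 1 in the DBA mPFC, 2 in the C57 NAc and 1 in the C57 mPFC, DBA minus C57 gave 8 in NAc RCF, 7 in mPFC RCF and 0 in mPFC control, and strain by region gave 0. By their matrix columns, each listed region pair held a single region and strain. The listed treatment pairs differed in strain, and the listed strain pairs differed in region. Array weights gave 7 in C57 RCF, 1 in NAc RCF strain, 6 in mPFC RCF strain, 3 in mPFC control strain and 4 in strain by region. With 31 arrays unaveraged, the counts were 1 in NAc RCF strain, 3 in NAc control strain, 2 in mPFC control strain and 6 in strain by region; the replicate block on these arrays gave 1, 2, 2 and 5, and changed no other count by over 1.5 times. The tissue score covariate gave 1 in NAc RCF strain and 1 in NAc control strain. Normexp gave 1 in mPFC RCF strain, 0 in mPFC control strain and 1 in strain by region, and quantile normalization 0 in mPFC control strain. What else lay behind the shifts in this paragraph was not tested.

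Signs of uncalled differences often turned: without the samples in doubt, 3 of 10 members, against 9 with all samples, were above 0 for DBA minus C57 in NAc control, and 9, against 5, for NAc minus mPFC in C57 control. Where a difference was called before or after, the sign turned in these cases. With the files as listed, DBA RCF region differences were -0.0375 for Six3, -0.22 for Ebf1, -0.0855 for Dlx5 and -0.0261 for Dlx6, and the averages -0.0089 for Six3 and -0.0859 for Ebf1. RCF minus control of Dlx5 in the C57 NAc was -1.21. DBA minus C57 in NAc RCF was 3.17 for Foxp2, 1.07 for Meis2 and 1.78 for Dlx5. In mPFC RCF it was 5.31 for Isl1, 5.42 for Six3, 2.46 for Foxp2, 0.62 for Meis2, 1.97 for Dlx5, 2.11 for Dlx6 and 2.33 for Rarb, and in mPFC control 0.43 for Meis2. By their matrix columns, these listed DBA and C57 groups were NAc and mPFC arrays of the same strain. Rarb in the C57 control region comparison was 2.39 without the samples in doubt and the 2 DBA NAc samples, and Dlx6 between strains in mPFC RCF was 0.82 with the tissue covariate.

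The counts in this paragraph also stand without shares over all features, so they do not set the members apart from other genes. Leaving out 1 sample at a time, the region counts ranged from 5 to 10 in DBA RCF, 4 to 9 in DBA control, 0 to 2 in C57 RCF, 0 to 0 in C57 control and 6 to 9 on average. The lowest average, 6, came without C57 NAc control 2 and 4, the 10 without DBA NAc RCF 3, the 9 in DBA control without DBA NAc control 1 and the 4 without DBA mPFC control 3. Strain counts ranged from 0 to 1 in NAc RCF, 0 to 4 in NAc control, 1 to 3 in mPFC RCF and 0 to 2 in mPFC control, strain by region from 0 (without C57 NAc control 1 and 3) to 6 (without C57 NAc control 2 and 4), and RCF minus control from 0 to 1 in the C57 NAc and 0 to 0 elsewhere. Signal over background limits Isl1 most, since its mPFC levels lay near the dimmest detected signals.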

Other observations

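Cholinergic interneuron markers, a list of 8 genes sharing Lhx8 and Gbx2 with the relatives of the members, were all past the test, higher in the NAc, in the fit averaged over strain and treatment. In that fit 50.9% of all features were called and 17.2% were called higher. No size is given for the members of it that no DBA mPFC RCF array had well above background. Slc5a7, the choline transporter gene of this list, was also the gene closest to Isl1 in pattern.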
